A study of Homo sapiens with 24 samples.

Results

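The mRNAs loaded on heavy polysomes were compared with those of total RNA in A2058 cells, an established human melanoma line, in which LSM14A had been depleted and DNA replication stalled. Of the 24 libraries of the study, 6 were chosen by their labels, namely the 3 polysomal and the 3 total libraries of cells given siLSM14A and hydroxyurea (HU). The cells were transfected with siRNA against LSM14A, given in the methods as 20 nM of each siRNA, and treated with 10 mM HU for 2 h. HU inhibits ribonucleotide reductase and so starves replication forks of nucleotides. Polysomal RNA was recovered from the heavy end of a 15 to 50% sucrose gradient, given in the methods as fractions 13 to 17 in one paragraph and as the 4 heaviest fractions in another, and total RNA came from the input of the lysates. Cycloheximide, which holds ribosomes on their mRNAs, was added before lysis. The other 18 libraries, 6 each for siCTRL NT (control siRNA, untreated), siCTRL HU and siLSM14A NT, were used only to see where siLSM14A HU cells differed. All cells are of the same line, and the knockdown by siRNA is transient.

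An mRNA that carries many ribosomes sediments deep in a sucrose gradient, and its level in the heavy fractions relative to total RNA reflects how often it is initiated and how many ribosomes its coding sequence can hold. Initiation is affected by the cap-proximal sequence, by upstream ATG codons in the 5′UTR that capture scanning ribosomes, and by proteins or structures bound to either UTR. LSM14A, the human relative of yeast Scd6, is an RNA-binding protein of P-bodies, the cytoplasmic granules that hold mRNAs away from translation together with decapping factors such as DDX6, EDC4 and DCP2.

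*LSM14A* itself was checked first. It stood at 6.59, 7.67 and 6.11 CPM (counts scaled to a common library size) in the 3 libraries of total RNA and at 2.38, 2.35 and 2.16 CPM in the 3 polysomal libraries of siLSM14A HU cells. On a common scale over all 24 libraries, total RNA held 6.14 to 7.69 CPM in siLSM14A HU cells against 80.9 to 91.0 CPM in siCTRL HU cells, and the groups did not overlap. The remaining *LSM14A* mRNA was low in heavy polysomes (log2 ratio -1.56 ± 0.15, SE, adjusted p = 9.07e-05 by edgeR's quasi-likelihood F-test), and the ratio was also negative in the 3 other conditions (-0.93 in siCTRL NT, -1.25 in siCTRL HU and -1.80 in siLSM14A NT). In bulk RNA a lower level in every cell cannot be told apart from fewer cells that hold the mRNA.

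The 6 libraries held 27843461 to 38520350 counts, so that counting error is small except for genes near 1 CPM. Replicates of one fraction correlated at 0.982 to 0.996 on the log2 CPM scale and differed beyond sampling noise, with a chi-square per gene of 10.5 to 14.3 between total RNA libraries and 43.2 to 113 between polysomal libraries. The polysomal library of replicate 2 stood farthest from the others, and the ratios of replicate 2 spread more widely over genes (SD 0.957) than those of replicates 1 and 3 (0.764 and 0.689). The melanocyte genes *MITF*, *SOX10*, *TYR* and *PMEL* had at least 1909 counts in every library, *CD3E*, *KRT5* and *KRT1* had none, and *PTPRC* had at most 2.

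For each of 12377 protein-coding genes, the level in polysomal RNA was divided by the level in total RNA, and the result is given as a log2 ratio. Each library was scaled to its own composition (TMM), so a ratio of 0 marks a gene with the typical share of its mRNA in heavy polysomes, and an overall change in polysome content cannot be seen. At a Benjamini-Hochberg adjusted p-value under 0.05 in edgeR's quasi-likelihood test, 4057 genes (32.8%) were higher and 4215 (34.1%) were lower in heavy polysomes, and 4105 were not called. The median over all genes was -0.039 and the range -4.05 to 2.79. With a change of at least 2-fold added, 1098 genes (8.87%) were higher and 1300 (10.5%) lower. The polysomal and total values did not overlap for 73.6% of all genes tested, so a lack of overlap is common here and marks no gene out. The ratios of the 3 replicates correlated with one another at 0.867 to 0.896 across genes, which are not independent. Upper-quartile scaling in place of TMM moved the median of all genes by -0.158 and the split of the 2-fold calls from 1098 higher and 1300 lower to 660 and 1888, so small ratios in either direction are relative to this choice.

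**Figure D1:**
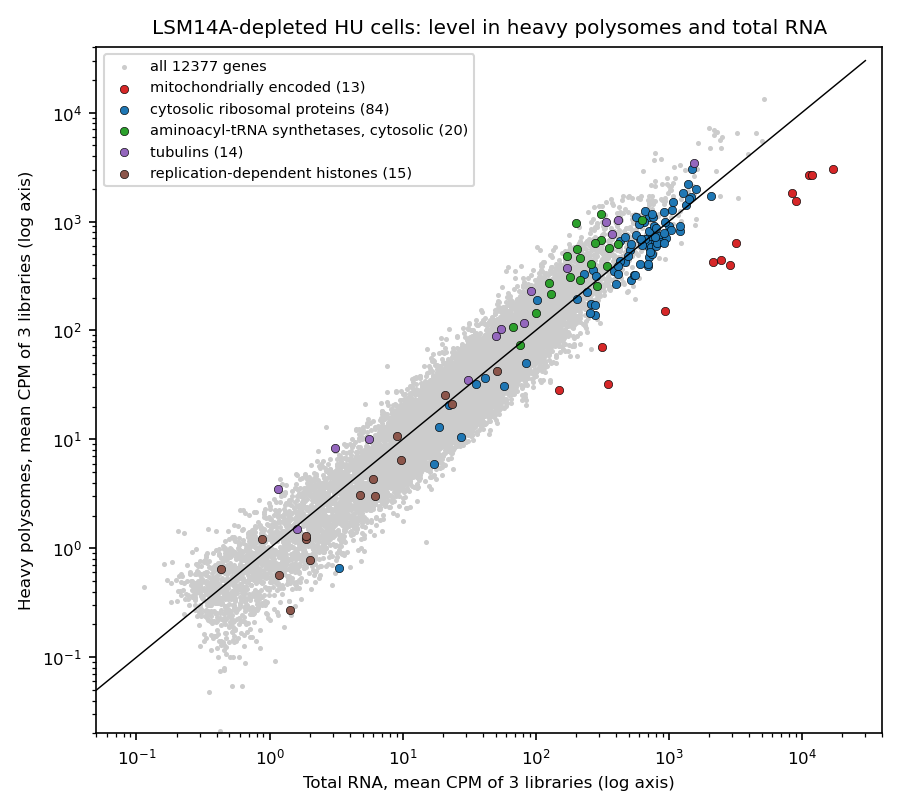
Mean CPM of each of 12377 genes in total RNA (x axis, log scale) and in heavy polysomes (y axis, log scale) of siLSM14A HU cells, 3 libraries each, with the line of equal levels. The 13 mitochondrially encoded mRNAs lie far below the line, 12 of 14 tubulins and 17 of 20 cytosolic aminoacyl-tRNA synthetases lie above it and were called higher, and the 84 ribosomal protein mRNAs lie on both sides.

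The 12 highest genes are described first. *UBA7*, the activating enzyme for ISG15, had the highest ratio of them, with 7.76, 7.74 and 7.35 CPM in total RNA and 44.4, 64.7 and 31.1 CPM in heavy polysomes (log2 ratio 2.62 ± 0.25, SE, adjusted p = 7.39e-05). *MVP*, which encodes the major vault protein, followed with 61.3, 65.8 and 59.7 CPM in total RNA and 377, 488 and 274 CPM in polysomes (log2 ratio 2.61 ± 0.19, SE, adjusted p = 4.46e-05). In both genes every polysomal value was above every total value, and replicate 2 gave the highest ratio and replicate 3 the lowest.

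*CSPG4*, the melanoma-associated chondroitin sulfate proteoglycan, was the most abundant of the 12 highest genes, at 839, 839 and 693 CPM in total RNA and 3807, 5503 and 3517 CPM in heavy polysomes (log2 ratio 2.44 ± 0.18, SE, adjusted p = 4.46e-05). *CAD*, which encodes the enzyme that starts pyrimidine synthesis, had the smallest error among the 12, with 119, 101.1 and 103 CPM against 503, 613 and 527 CPM (log2 ratio 2.35 ± 0.11, SE, adjusted p = 4.35e-05). The others were *PC* (pyruvate carboxylase, log2 ratio 2.57), *LAMB2* (a laminin chain, 2.49), *RRP12* (ribosomal RNA processing, 2.34), *SKIC2* (helicase of the SKI complex, 2.33), *UBA1* (ubiquitin-activating enzyme, 2.31), *DDB1* (adaptor of CUL4 ubiquitin ligases, 2.30), *CORO7* (a coronin, 2.29) and *VARS1* (valyl-tRNA synthetase, 2.27). For *CORO7* the exons shared with other annotated genes leave 62.5% of its exonic bases unique, and the values of that gene are less certain. These genes lie in the hg19 build at, for example, chr3:49842642-49851386 (*UBA7*), chr16:29831715-29859360 (*MVP*), chr15:75966663-76005189 (*CSPG4*) and chr2:27440237-27466811 (*CAD*). Their transcripts had a G+C content of 52.1 to 64.4% and coding sequences of 2682 to 6969 bases, with at most 2 copies of ATTTA in the 3′UTR.

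At the other end, 9 of the 12 lowest genes were encoded in mitochondrial DNA. These mRNAs are translated inside the organelle by its own ribosomes and do not meet cytosolic polysomes. *MT-CO1*, which encodes a core subunit of cytochrome c oxidase, was the most abundant of them, at 15270, 18403 and 17801 CPM in total RNA and 2528, 2362 and 4292 CPM in heavy polysomes (log2 ratio -2.49 ± 0.22, SE, adjusted p = 6.67e-05). All 13 mitochondrially encoded mRNAs were called lower, with log2 ratios from -3.44 (*MT-ATP8*) to -2.08 (*MT-CO2*) and a median of -2.41, and the medians of replicates 1, 2 and 3 were -2.43, -2.82 and -2.04. They made up 6.82 to 8.66% of the counts in total RNA and 0.982 to 1.70% in polysomal RNA.

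The other 3 of the 12 lowest genes were nuclear. *ZBED6*, which encodes a transcription factor, lies within *ZC3H11A*, and only 4.26% of its exonic bases belong to no other annotated gene. It was measured at 14.8, 14.9 and 14.9 CPM in total RNA and 0.582, 1.41 and 1.44 CPM in heavy polysomes (log2 ratio -3.72 ± 0.26, SE, adjusted p = 4.35e-05), whereas its host *ZC3H11A*, named here after its value was seen, had a ratio of -0.20 and was not called (adjusted p = 0.359). How much of the *ZBED6* count comes from transcripts of the host cannot be told from these counts. *AAK1*, which encodes a kinase of clathrin adaptors (chr2:69685129-69901481), fell from 10.3, 11.2 and 8.78 CPM in total RNA to 1.45, 2.21 and 1.68 CPM (log2 ratio -2.50 ± 0.19, SE, adjusted p = 4.53e-05), and its annotated 3′UTR of 17872 bases holds 36 copies of ATTTA. *MTX3*, which encodes a metaxin of the outer mitochondrial membrane (chr5:79272539-79287085), was at 13.9, 12.1 and 12.2 CPM in total RNA and 1.63, 2.32 and 4.22 CPM in polysomes (log2 ratio -2.23 ± 0.29, SE, adjusted p = 2.52e-04), with a 3′UTR of 6968 bases and 29 copies.

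**Figure D2:**
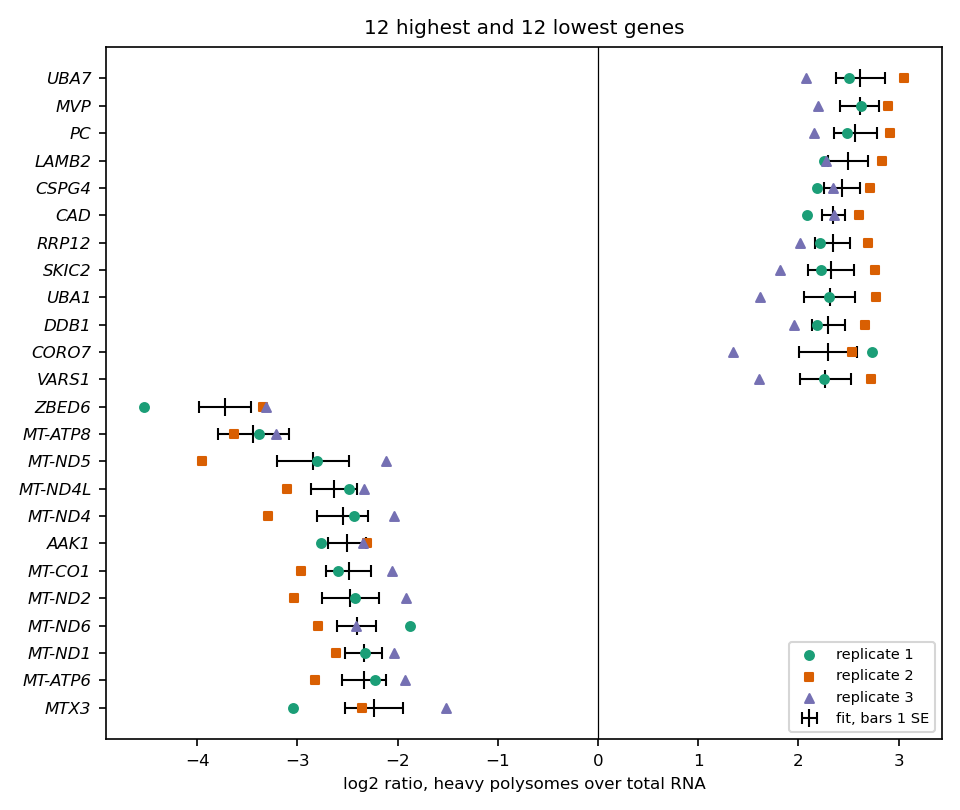
log2 ratio of heavy polysomes to total RNA for the 12 highest and 12 lowest genes in siLSM14A HU cells, as the fit (black, bars 1 SE) and in replicates 1 to 3 (coloured points). Replicate 2 gave the highest ratio for every gene of the upper block except CORO7, and the fits run from 2.62 for UBA7 to -3.72 for ZBED6.

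The G+C content of the transcript ordered the ratios more than any other feature examined. Among transcripts under 40% G+C the median log2 ratio was -0.70 (n = 2150), with 3.72% of genes higher and 70.5% lower, and among those of at least 60% it was 0.71 (n = 1946), with 73.3% higher and 1.70% lower. Spearman's rho across the 12377 genes was 0.667, as a description, since genes share libraries and base composition. It was 0.595, 0.711 and 0.621 in replicates 1, 2 and 3, and 0.686, 0.733 and 0.677 in siCTRL NT, siCTRL HU and siLSM14A NT cells, so the pattern was not limited to LSM14A-depleted, HU-treated cells. G+C content can act on translation and on library preparation, and these cannot be told apart here. The tests were therefore also run with a correction that removes each library's trend with G+C content. That correction left 3477 genes higher and 3604 lower, but only 454 higher and 580 lower by at least 2-fold, and it is given beside each gene group whose median it turns or moves by over 1.5 times.

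Copies of ATTTA, the core of AU-rich elements that recruit decay and repressor proteins, went with low ratios. Genes with no copy in the annotated 3′UTR had a median of 0.56 (n = 3265) and genes with at least 10 copies a median of -0.66 (n = 1925), and 73.6% of all genes tested held at least 1 copy. The difference was smaller within a range of G+C content. Among transcripts of 45 to 55% G+C the median was 0.25 without a copy, 0.042 with 1 to 4 and -0.25 with 5 or more. Under 45% the medians were -0.41, -0.42 and -0.65, and from 55% upwards they were 0.73, 0.53 and 0.040. With the G+C correction, the medians over all genes were 0.086 without a copy and -0.15 with at least 10.

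The windows with the most copies in the 3′UTRs of low genes are shown as examples of the element, which most genes hold, in genes that were picked for low ratios. They are taken from the annotated transcript in the sense direction (hg19), with ATTTA in capitals.
MTX3 (chr5:79279131-79279160, minus strand): taATTTAtttgATTTAATTTAttcaATTTA
ITGB8 (chr7:20453480-20453509, plus strand): caatATTTAATTTAcaactatccttATTTA
ZNF621 (chr3:40575645-40575674, plus strand): tcatATTTAtgaattataaatatgaATTTA
XRCC2 (chr7:152344348-152344377, minus strand): cagcatctatacgtaATTTAaacaaATTTA
AAK1 (chr2:69691654-69691683, minus strand): aactgacttgaaccccattttATTTATTTA
*MTX3* thus held 4 copies within 30 bases and *ITGB8*, an integrin subunit, 3. A match is a description of the letters and not a site.

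Upstream ATG triplets in the annotated 5′UTR also went with low ratios, and this changed little with G+C content. The median fell from 0.13 without an upstream ATG (n = 7271) through -0.17 with 1 (n = 2434) to -0.66 with 5 or more (n = 639), and 41.3% of all genes tested held at least 1. With the G+C correction the ends of that range were 0.11 and -0.51. Within each range of G+C content, genes with 3 or more upstream ATGs had lower medians than genes with none, -0.94 against -0.41 under 45%, -0.40 against 0.16 from 45 to 55%, and 0.32 against 0.75 above.

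The length of the coding sequence limits how many ribosomes an mRNA can hold, and short coding sequences went with low ratios. Whether ribosome capacity contributes was not tested. Genes with coding sequences under 300 bases had a median of -0.48 (n = 226, 7.08% higher and 57.1% lower) and those of 300 to 500 bases a median of -0.17 (n = 766). From 500 bases upwards the medians of the bins lay between -0.037 and 0.10, and rho over all genes was 0.048. In the longest bin, at least 8000 bases (n = 157), replicate 2 gave a median of -0.21 against 0.14 and 0.34 in replicates 1 and 3. A long 3′UTR went with low ratios, from 0.45 under 250 bases (n = 1374) to -0.50 from 4000 bases upwards (n = 1685), and with the G+C correction these were 0.12 and -0.14.

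**Figure D3:**
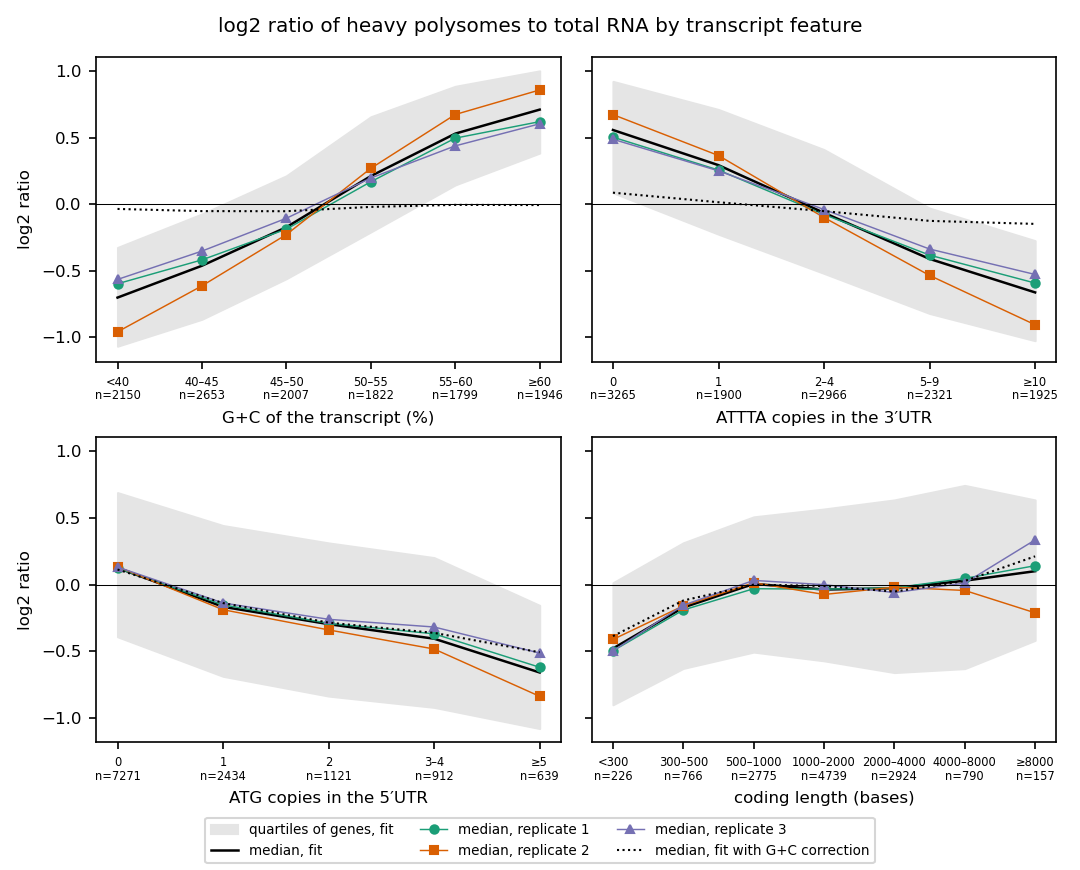
Median log2 ratio of heavy polysomes to total RNA in siLSM14A HU cells over bins of G+C content, ATTTA copies in the 3′UTR, ATG copies in the 5′UTR and coding length, with n per bin under each axis. Grey bands are the quartiles of genes, the black line the fit, coloured lines replicates 1 to 3 and the dotted line the fit with G+C correction, which flattens the first panel (-0.70 to 0.71 without it) but keeps the slope with upstream ATGs.

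The counts of every gene group are to be read beside the 32.8% of all genes called higher and the 34.1% called lower. Among the gene groups, the tubulins had the highest median, 1.08, with 12 of 14 genes higher and none lower, against medians of 1.08, 1.16 and 0.95 in replicates 1, 2 and 3. *TUBB4B*, a β-tubulin, went from 357, 327 and 325 CPM in total RNA to 1099.9, 1003 and 858 CPM in heavy polysomes (log2 ratio 1.55 ± 0.11, SE, adjusted p = 4.35e-05). *TUBG2*, a γ-tubulin of the microtubule nucleation complex, was not called (0.18 ± 0.10, adjusted p = 0.138). With the G+C correction the median of the group was 0.72, with 10 genes higher and 2 lower, and *TUBG2* became -0.40 (adjusted p = 0.0156).

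The cytosolic aminoacyl-tRNA synthetases, which charge tRNAs with amino acids, were higher in 17 of 20 genes, with none lower and a median of 0.72. *AARS1* (alanyl-tRNA synthetase) stood at 312, 298 and 316 CPM in total RNA and 1212, 1453 and 874 CPM in polysomes (log2 ratio 1.93 ± 0.17, SE, adjusted p = 6.20e-05). *NARS1*, for asparagine, had the lowest ratio of the group at -0.18 and was not called (adjusted p = 0.264). The median was 0.79 with the G+C correction, and all 20 were then called higher.

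The machinery that folds and degrades proteins lay mostly on the high side. Of 8 subunits of the chaperonin CCT, which folds actin and tubulin, 7 were higher (median 0.50, and 0.83 with the G+C correction), led by *CCT7* (log2 ratio 1.40 ± 0.09, SE, adjusted p = 4.35e-05), while *TCP1* was not called (0.052, adjusted p = 0.63). Of 36 proteasome subunits 23 were higher and 1 was lower (median 0.49). The catalytic subunit gene *PSMB6* had 145, 148 and 142.1 CPM in total RNA and 319, 316 and 321 CPM in polysomes (log2 ratio 1.14 ± 0.08, SE, adjusted p = 4.35e-05). The lower one, the ATPase subunit *PSMC6* (-0.45, adjusted p = 0.0177), turned to 0.28 (adjusted p = 0.0202) with the G+C correction.

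Heat shock proteins and cochaperones were higher in 10 and lower in 2 of 19 genes (median 0.46), and 6 higher and 0 lower without replicate 1. *HSP90AB1*, the constitutive HSP90, had 2258, 2311 and 2319.6 CPM in total RNA and 7369, 7311 and 5166 CPM in heavy polysomes (log2 ratio 1.53 ± 0.14, SE, adjusted p = 6.73e-05), and *HSPA8* a ratio of 1.201. *DNAJB4* and *CHORDC1* were the lowest (-1.27 and -0.96). ER chaperones and folding enzymes were higher in 11 and lower in 4 of 18 genes (median 0.42), led by *HYOU1* (1.47) and *HSPA5*, which encodes BiP (1.17). The counts were 8 higher and 1 lower without replicate 1 and 11 higher and 1 lower without replicate 2.

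**Figure D4:**
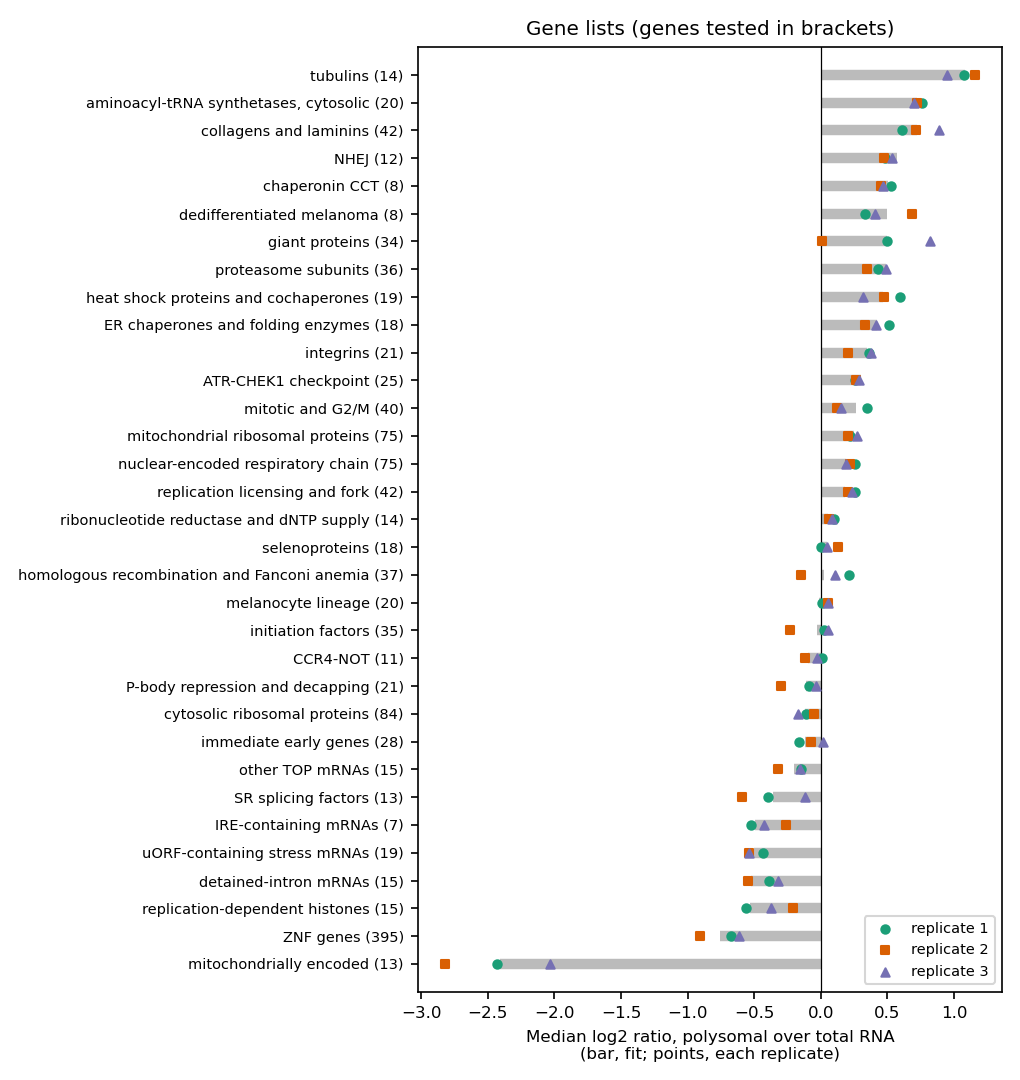
Median log2 ratio of heavy polysomes to total RNA for gene lists with at least 5 genes tested (number in brackets) in siLSM14A HU cells, as the fit (grey bar) and in replicates 1 to 3 (points). Medians run from 1.08 for tubulins to -2.41 for mitochondrially encoded mRNAs, against -0.039 for all 12377 genes, and those near 0 change sign with the scaling or the G+C correction.

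The mRNAs for cytosolic ribosomal proteins split around 0. Of 84 tested, 21 were higher, 33 lower and 30 not called, with a median of -0.12 and medians of -0.11, -0.054 and -0.17 in replicates 1, 2 and 3. Upper-quartile scaling left 17 higher and 47 lower, and with the G+C correction the median of the list was -0.056, with 22 higher and 30 lower. *RPL8* had the highest ratio, from 1505, 1532 and 1468 CPM in total RNA to 3066, 3041 and 2939.9 CPM in polysomes (log2 ratio 1.01 ± 0.08, SE, adjusted p = 4.78e-05), followed by *RPS9* (log2 ratio 0.94 ± 0.08, SE, adjusted p = 5.69e-05). The lowest 2 with a mean of at least 5 CPM, *RPL26* (-1.38) and *RPL17* (-1.51), were counted at only 29.1, 26.8 and 26.3 and 16.9, 17 and 17.3 CPM in total RNA against a median of 651 CPM for the group, and overlap of *RPL17* with another annotated gene leaves 67.1% of its bases unique. The 75 ribosomal protein genes above 100 CPM had a median of -0.058 and the 8 under 50 CPM a median of -0.72, and whether reads lost to copies or overlapping genes contribute was not tested. By coding length the median of ribosomal protein genes was -0.60 against -0.48 for all genes under 300 bases, -0.19 against -0.17 from 300 to 500, and 0.18 against 0.0048 from 500 to 1000, and a correction for coding length turned the group's median to 0.11.

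Ribosomal protein mRNAs belong to the TOP class, which begins with a C followed by a run of pyrimidines through which LARP1 and mTOR signalling regulate them. The first 30 bases of annotated transcripts are shown for members with high, middle and low ratios, with the leading run of C and T in capitals where it has at least 5 bases.
EEF2 (chr19:3985432-3985461, minus strand, log2 ratio 1.85): CTCTTCCgccgtcgtcgccgccatcctcgg
VIM (chr10:17270240-17270269, plus strand, log2 ratio 0.94): gggaggcccacgtatggcgcctctccaaag
RPS9 (chr19:54704726-54704755, plus strand, log2 ratio 0.94): CTCTTTCTCagtgaccgggtggtttgctta
EEF1A1 (chr6:74230726-74230755, minus strand, log2 ratio 0.12): CTTTTTCgcaacgggtttgccgccagaaca
NPM1 (chr5:170814853-170814882, plus strand, log2 ratio -0.30): CTTTCCCTggtgtgattccgtcctgcgcgg
TPT1 (chr13:45915289-45915318, minus strand, log2 ratio -0.95): CTTTTCCgcccgctcccccctccccccgag
RPL26 (chr17:8286482-8286511, minus strand, log2 ratio -1.38): CTCTTCCCTTTTgcggccatcaccgaagcg
The annotated start of *VIM*, a member with a high ratio, had no such run, and starts with one occurred at both ends of the range. Over all genes tested, 697 annotated transcripts (5.63%) began with C and at least 4 further pyrimidines, and their median of -0.050 was close to the -0.039 of the others, with 223 higher and 244 lower. Annotated starts need not be the starts used in these cells.

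Other TOP mRNAs, which encode elongation factors and related proteins, were likewise divided, 5 higher and 4 lower of 15, and their median of -0.20 turned to 0.22 with the G+C correction. The counts were 4 higher and 2 lower without replicate 1. Without polysomal replicate 2 the median was -0.12. *EEF2*, the elongation factor that moves the ribosome along, was measured at 2063, 1964 and 1987 CPM in total RNA and 7230, 9682 and 4706 CPM in heavy polysomes (log2 ratio 1.85 ± 0.22, SE, adjusted p = 1.95e-04), and every polysomal value was above every total value. *EEF1A1* was not called (0.12 ± 0.08, adjusted p = 0.201). *TPT1* (translationally controlled tumour protein, log2 ratio -0.95 ± 0.10, SE, adjusted p = 1.13e-04) and *PABPC1* (poly(A)-binding protein, log2 ratio -0.85 ± 0.11, SE, adjusted p = 2.24e-04) were lower.

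Initiation factors had 13 genes higher and 12 lower of 35 (37.1% and 34.3%, against 32.8% and 34.1% of all genes). Their median of -0.028 turned to 0.0017 with RLE size factors. For this list with the G+C correction the median of the list was 0.22, with 19 higher and 4 lower, and the counts were 11 higher and 6 lower without replicate 1. The median was 0.099 without polysomal replicate 2. *EIF4G1*, the scaffold that joins the cap-binding protein to the ribosome, was higher (log2 ratio 1.41 ± 0.13, SE, adjusted p = 7.04e-05), whereas *EIF4E*, the cap-binding protein itself, was lower, at 65.1, 67.8 and 70.4 CPM in total RNA and 35, 29.6 and 41.4 CPM in polysomes (log2 ratio -0.94 ± 0.13, SE, adjusted p = 3.16e-04). *EIF4G2*, a relative of *EIF4G1* that cannot bind EIF4E, was lower as well (log2 ratio -1.05 ± 0.14, SE, adjusted p = 2.76e-04).

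Nuclear-encoded mRNAs for mitochondria did not follow the mitochondrially encoded ones. Of 75 nuclear respiratory chain genes 36 were higher and 13 lower (median 0.19), and of 75 mitochondrial ribosomal protein genes 36 were higher and 12 lower (median 0.25). With upper-quartile scaling these became 28 and 20, and 27 and 20. The counts were 24 higher and 8 lower without replicate 1 for the respiratory chain and 25 higher and 5 lower without replicate 1 for the mitochondrial ribosome. *UQCRC1*, a core subunit of complex III, had 281, 279 and 261 CPM in total RNA and 886, 887 and 745 CPM in polysomes (log2 ratio 1.62 ± 0.10, SE, adjusted p = 4.35e-05). At the low end stood *NDUFB3*, a small subunit of complex I, at 54.2, 59.7 and 54.6 against 27.2, 30.1 and 23 CPM (log2 ratio -1.07 ± 0.12, SE, adjusted p = 1.33e-04). Within one range of coding length, 300 to 500 bases, the respiratory chain genes had a median of 0.19 (n = 26) against -0.17 for all 766 genes.

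Stress mRNAs known for upstream open reading frames (uORFs), which hold back translation of the main reading frame until eIF2α is phosphorylated, were more often low than high in heavy polysomes. Of 19 tested 10 were lower and 4 higher, with a median of -0.50 and medians of -0.43, -0.54 and -0.54 in the 3 replicates. *ATF4*, the transcription factor of the integrated stress response, was measured at 559.99, 539.9 and 549 CPM in total RNA and 329.9, 327 and 341 CPM in polysomes (log2 ratio -0.72 ± 0.08, SE, adjusted p = 1.13e-04), and *DDIT3*, which encodes CHOP, at 24.6, 25.4 and 25.1 against 12.7, 11.9 and 11.4 CPM (log2 ratio -1.06 ± 0.10, SE, adjusted p = 7.44e-05). The values of each fraction lay close together and apart from the other fraction in both genes. *IBTK* was the lowest (log2 ratio -1.10 ± 0.16, SE, adjusted p = 4.63e-04). *SESN2* and *CHAC1*, both targets of ATF4, were on the high side (0.83 and 0.83), and with the G+C correction 12 of the 19 genes were lower and none higher.

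The upstream ATGs of these mRNAs are shown in the annotated transcripts (hg19), with the ATG named in capitals and up to 9 bases before it. The window of *DDIT3* also holds its second ATG, in lower case.
ATF4 first (chr22:39916582-39916611, plus strand): cgcccacagATGtagttttctctgcgcgtg
ATF4 second (chr22:39916644-39916673, plus strand): acggccaccATGgcgtattaggggcagcag
DDIT3 first (chr12:57914243-57914272, minus strand): gagcgtatcATGttaaagatgagcgggtgg
IBTK first (chr6:82957324-82957353, minus strand): tcactgaggATGagtccctttgtggctcta
SESN2 (chr1:28586041-28586070, plus strand): gcggcggggATGctgaggagcgctgggtcc
The first ATG of *ATF4* is followed at once by a stop codon (tag). The annotated 5′UTRs held 3 ATGs in *ATF4*, 3 in *DDIT3*, 5 in *IBTK* and 1 in *SESN2*, of which those printed are a selection.

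mRNAs with iron-responsive elements (IREs), hairpins bound by the iron regulatory proteins, were found at both ends. *FTH1*, the ferritin heavy chain, has the hairpin near its cap, where binding blocks initiation. It stood at 3431, 3222 and 3203 CPM in total RNA and 1526, 1853 and 1572 CPM in heavy polysomes (log2 ratio -0.99 ± 0.10, SE, adjusted p = 9.24e-05), and *FTL*, the light chain, named after its value was seen, at 2453, 2377 and 2383 against 1622, 1984 and 1504 CPM (log2 ratio -0.50 ± 0.11, SE, adjusted p = 0.00406). *TFRC*, the transferrin receptor, has hairpins in its 3′UTR, where binding protects the mRNA from decay. It stood at 598, 643 and 614 CPM in total RNA and 977, 1328 and 764 CPM in polysomes (log2 ratio 0.73 ± 0.18, SE, adjusted p = 0.00603). Of 7 genes tested, 2 were higher and 4 lower. Without replicate 1, 1 was higher and 2 were lower.

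The hairpins were searched as C, 5 bases, the loop CAGNGN (A or T at the fourth base and no G at the sixth) and 5 bases that pair with the first 5, G with T allowed, on the sense strand of each annotated UTR. The pattern was present in the 5′UTR of 13 genes tested (0.105%) and in the 3′UTR of 132 (1.07%). The loop is in capitals below.
FTH1 5′UTR (chr11:61735045-61735074, minus strand): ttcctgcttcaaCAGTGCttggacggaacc
FTL 5′UTR (chr19:49468592-49468621, plus strand): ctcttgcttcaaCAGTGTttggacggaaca
TFRC 3′UTR (chr3:195777849-195777878, minus strand): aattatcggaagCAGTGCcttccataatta
*TFRC* held 5 such matches in its 3′UTR, of which 1 is shown.

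Collagens and laminins were higher in 25 and lower in 2 of 42 genes (median 0.72, and 0.43 with the G+C correction), from *LAMB2* at the top to *COL27A1*, which was low in spite of a G+C content of 61.3% (log2 ratio -0.96 ± 0.14, SE, adjusted p = 4.30e-04). Integrins divided into 10 higher and 7 lower of 21 (median 0.35, 0.22 with the correction and 0.19 with upper-quartile scaling). *ITGB4* was measured at 17.9, 21.2 and 20.6 CPM in total RNA and 62.1, 104 and 59.1 CPM in polysomes (log2 ratio 1.91 ± 0.21, SE, adjusted p = 1.37e-04), and *ITGB8* at 139, 154 and 135 against 60.9, 34.6 and 56.6 CPM (log2 ratio -1.49 ± 0.19, SE, adjusted p = 2.48e-04), where replicate 2 was again the most extreme in both directions. Among mRNAs for giant proteins 17 of 34 were higher and 4 lower, led by *FLNA* (2.24) and *TLN1* (2.23), which link the cytoskeleton to membranes and integrins. Their median was 0.50 in the fit but 0.49, 0.010 and 0.82 in replicates 1, 2 and 3. The counts were 14 higher and 2 lower without replicate 1.

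Genes of the melanocyte lineage, which mark the cell type, had 8 higher and 8 lower of 20 (40% each, against 32.8% and 34.1% of all genes). Their median was -0.012, which changed sign with the scaling. The counts were 8 higher and 3 lower without replicate 1, and with the G+C correction the median of the list was 0.050, with 6 higher and 3 lower. Without polysomal replicate 2 the median was -0.038. *PMEL*, the matrix protein of melanosomes, was the highest, at 381, 378 and 344 CPM in total RNA and 1728, 2093 and 973 CPM in heavy polysomes (log2 ratio 2.12 ± 0.24, SE, adjusted p = 1.52e-04). *DCT* (log2 ratio -0.76 ± 0.09, SE, adjusted p = 2.16e-04) and *MLANA* (log2 ratio -0.80 ± 0.24, SE, adjusted p = 0.0162) were lower. In the list of dedifferentiated melanoma markers, *LOXL2* was high (1.83) and the transcription factor *ZEB1* low (log2 ratio -1.33 ± 0.14, SE, adjusted p = 1.18e-04), with 5 higher and 1 lower of 8 genes tested. For these, with the G+C correction the median of the list was 0.073, with 1 higher and 2 lower, and the counts were 3 higher and 1 lower without replicate 1. The median of 0.50 became 0.27 without polysomal replicate 2.

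Zinc finger genes of the ZNF series, mostly KRAB repressors, were the largest group on the low side. Of 395 tested, 251 (63.5%) were lower and 47 (11.9%) higher, against 34.1% and 32.8% of all genes, with a median of -0.75 and medians of -0.67, -0.91 and -0.61 in the replicates. *ZNF224* was measured at 14.2, 9.25 and 10.4 CPM in total RNA and 2.7, 2.06 and 2.47 CPM in polysomes (log2 ratio -2.22 ± 0.20, SE, adjusted p = 6.73e-05), and *ZNF621* at 18.3, 17.5 and 17.3 against 4.25, 3.69 and 5.01 CPM (log2 ratio -2.03 ± 0.14, SE, adjusted p = 4.35e-05). *ZNF341* and *ZNF282*, with 60.1 and 63.2% G+C, were higher (1.39 and 1.22). The group's transcripts had a median G+C content of 43.5%, and with the G+C correction the median was -0.50, with 211 lower and 18 higher. The counts were 31 higher and 186 lower without replicate 1.

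mRNAs with detained introns are spliced late and partly kept in the nucleus. Of 15 such mRNAs tested 8 were lower and 4 higher (median -0.52, and -0.29 with the G+C correction). *CCNL1*, a cyclin of the splicing machinery, had 49.5, 35.1 and 36.2 CPM in total RNA and 15.3, 8.88 and 13.6 CPM in polysomes (log2 ratio -1.67 ± 0.21, SE, adjusted p = 2.42e-04), and *OGT*, the enzyme of O-GlcNAc addition, was the highest (log2 ratio 1.196 ± 0.14, SE, adjusted p = 1.68e-04). Of 13 SR splicing factors 7 were lower and none higher (median -0.36), but with the G+C correction 2 were lower and 3 higher and the median was -0.091. The counts were 0 higher and 2 lower without replicate 1 and 0 higher and 4 lower without replicate 2 for SR factors and 3 higher and 5 lower without replicate 1 for detained introns. Without polysomal replicate 2 the medians were -0.24 and -0.31. *SRSF10* was the lowest (log2 ratio -1.005 ± 0.10, SE, adjusted p = 9.91e-05). Whether mRNA held in the nucleus contributes to total RNA here was not tested.

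Immediate early genes had 5 higher and 6 lower of 28, from *JUNB* (log2 ratio 0.79 ± 0.11, SE, adjusted p = 2.90e-04) to *KLF6* (log2 ratio -1.10 ± 0.14, SE, adjusted p = 2.21e-04). For this list with the G+C correction the median of the list was -0.29, with 0 higher and 13 lower, against -0.12 without it, and the counts were 2 higher and 2 lower without replicate 1 and 3 higher and 6 lower without replicate 3. The median was -0.072 without polysomal replicate 2. Replication-dependent histones were measured only weakly, since most of their mRNAs end without a poly(A) tail and the libraries were made from polyadenylated RNA. Of 35 such genes 15 were tested, 8 were lower and 1 was higher (median -0.53), with -0.86 after the G+C correction, and without replicate 1 only 3 were called, all lower. *H1-2* was the one called higher (log2 ratio 0.32 ± 0.10, SE, adjusted p = 0.0181), which the G+C correction turned to -0.16 (adjusted p = 0.207), and *H2BC5* was lower (log2 ratio -0.58 ± 0.17, SE, adjusted p = 0.0125).

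HU acts on ribonucleotide reductase. Its subunit genes differed between the fractions, a comparison within HU-treated cells that cannot show an effect of HU. *RRM1*, the large subunit, was measured at 159.5, 148 and 164 CPM in total RNA and 358, 423 and 281 CPM in heavy polysomes (log2 ratio 1.17 ± 0.14, SE, adjusted p = 1.98e-04), and *RRM2*, the small subunit of dividing cells, at 116, 118 and 119.8 against 152, 145 and 163 CPM (log2 ratio 0.38 ± 0.08, SE, adjusted p = 0.00348). *RRM2B*, the p53-induced small subunit, was lower, at 24.6, 27.7 and 26.6 CPM in total RNA and 12.4, 9.49 and 15 CPM in polysomes (log2 ratio -1.09 ± 0.16, SE, adjusted p = 4.81e-04). None of the 3 genes had overlapping fractions, which was also so for 73.6% of all genes tested. The *RRM2* ratio differed by -0.075, -0.031 and -0.084 from siCTRL NT, siCTRL HU and siLSM14A NT cells, and no difference passed the adjustment. *TK1*, thymidine kinase, was the highest of the 14 genes of dNTP supply (log2 ratio 1.42 ± 0.09, SE, adjusted p = 4.35e-05), of which 6 were higher and 3 lower (median 0.057, 0.15 with the G+C correction, 0.10 without polysomal replicate 2 and -0.10 with upper-quartile scaling). The median of these genes was 0.20 in siCTRL NT, 0.21 in siCTRL HU and 0.28 in siLSM14A NT cells.

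Genes of replication licensing and the fork were higher in 21 and lower in 6 of 42 (median 0.18, and 0.49 with the G+C correction, when 29 were higher and 1 lower, but 0.026 with 19 higher and 9 lower under upper-quartile scaling). *MCM2* and *MCM5*, subunits of the replicative helicase, led with 1.91 and 1.88. *MCM5* was measured at 112, 111 and 108 CPM in total RNA and 431, 489.7 and 298 CPM in polysomes (adjusted p = 6.48e-05). *DBF4*, the activator of the origin-firing kinase CDC7, was the lowest (log2 ratio -1.09 ± 0.19, SE, adjusted p = 0.00116). Mitotic and G2/M genes were higher in 19 and lower in 5 of 40 (median 0.26, 0.52 with the correction and 0.10 with 13 higher and 9 lower under upper-quartile scaling), from *KIF2C* (1.47) and *CDC20* (1.38) to *CENPA* (-0.88). The counts were 19 higher and 2 lower without replicate 1 for replication and 12 higher and 4 lower without replicate 1 for mitosis.

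In the ATR-CHEK1 checkpoint, which responds to stalled forks, 13 of 25 genes were higher and 4 lower (median 0.30, 0.13 with the G+C correction and 0.15 with 11 higher and 8 lower under upper-quartile scaling). The scaffolds *MDC1* and *TP53BP1* were the highest. *TP53BP1* stood at 66.6, 71.1 and 68.8 CPM in total RNA and 157, 175 and 177 CPM in polysomes (log2 ratio 1.30 ± 0.09, SE, adjusted p = 4.35e-05). Both activators of ATR in the list, *ETAA1* (log2 ratio -1.55 ± 0.26, SE, adjusted p = 0.001) and *TOPBP1* (log2 ratio -0.98 ± 0.15, SE, adjusted p = 6.00e-04), were lower. In homologous recombination and the Fanconi anemia pathway 13 genes were higher and 10 lower of 37. Their median was 0.022, -0.14 with upper-quartile scaling and 0.20 with the G+C correction, and the counts were 7 higher and 8 lower without replicate 1. Without polysomal replicate 2 that median was 0.19. *FANCD2* was measured at 31.4, 33.9 and 34.6 CPM in total RNA and 88.6, 87.5 and 91.6 CPM in polysomes (log2 ratio 1.42 ± 0.09, SE, adjusted p = 4.35e-05), and *XRCC2*, a recombination protein, at 17.5, 15.4 and 15.2 against 4.36, 4.06 and 5.08 CPM (log2 ratio -1.83 ± 0.14, SE, adjusted p = 4.46e-05).

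Non-homologous end joining (NHEJ) had 7 genes higher and 3 lower of 12 (median 0.57, and 0.18 with the G+C correction). *PRKDC*, the catalytic subunit of DNA-PK, went from 561, 562 and 538 CPM in total RNA to 943, 706 and 1656 CPM in polysomes (log2 ratio 0.99 ± 0.26, SE, adjusted p = 0.0093), with ratios of 0.75, 0.33 and 1.62 in replicates 1, 2 and 3. *LIG4*, the ligase of this pathway, stood at 19.5, 21.2 and 23 CPM in total RNA and 15.7, 11.9 and 15.3 CPM in polysomes (log2 ratio -0.57 ± 0.14, SE, adjusted p = 0.00533). Its transcript has 35.2% G+C, and the G+C correction turned the ratio to 0.23 (adjusted p = 0.0427). *DCLRE1C*, the Artemis nuclease, was the lowest (log2 ratio -1.196 ± 0.13, SE, adjusted p = 1.17e-04).

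Genes of P-body repression and decapping, the setting in which LSM14A acts, had 6 higher (28.6%) and 9 lower (42.9%) of 21, against 32.8% and 34.1% of all genes. Their median was -0.11. *LSM14A*, the gene targeted by the siRNA, is counted among the 9 lower and is the lowest of the list (-1.56). The median was -0.059 without replicate 2 and -0.24 without replicate 3, and with the G+C correction the median of the list was -0.18, with 5 higher and 7 lower. *EDC4*, the scaffold of the decapping complex, was high, at 54.3, 54.8 and 51.1 CPM in total RNA and 157, 272 and 113 CPM in heavy polysomes (log2 ratio 1.76 ± 0.27, SE, adjusted p = 6.15e-04), and its activator *EDC3* as well (log2 ratio 0.89 ± 0.10, SE, adjusted p = 1.55e-04). *PNRC2*, a decapping cofactor (log2 ratio -1.51 ± 0.12, SE, adjusted p = 4.78e-05), and *LSM3*, a subunit of the LSM ring that binds mRNA 3′ ends (log2 ratio -1.42 ± 0.10, SE, adjusted p = 4.46e-05), were low. In the CCR4-NOT deadenylase, 2 genes were higher and 4 lower of 11, 0 higher and 2 lower without replicate 1, and with the G+C correction the median of the list was 0.12, with 3 higher and 3 lower. The median of -0.095 became -0.045 without polysomal replicate 2. Its catalytic subunits *CNOT6* (log2 ratio -1.08 ± 0.18, SE, adjusted p = 8.60e-04) and *CNOT7* (log2 ratio -0.97 ± 0.14, SE, adjusted p = 3.82e-04) were lower. *CNOT3* was higher (log2 ratio 0.40 ± 0.09, SE, adjusted p = 0.00368) and turned to -0.28 (adjusted p = 0.0432) with the G+C correction.

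Among genes fixed as references, *GAPDH* had 5258, 5052 and 5291 CPM in total RNA and 14105, 12665 and 12794 CPM in polysomes (log2 ratio 1.34 ± 0.09, SE, adjusted p = 4.35e-05) and *ACTB* 3385, 3245 and 3149 against 6865, 6523 and 5899 CPM (log2 ratio 0.98 ± 0.09, SE, adjusted p = 6.99e-05). Neither gene had overlapping fractions, as was so for 73.6% of all genes tested. *HPRT1* was not called (-0.14 ± 0.11, adjusted p = 0.26) and was 0.36 (adjusted p = 0.00139) with the G+C correction. *RTEL1*, a DNA helicase of telomeres and forks, was measured at only 0.602, 0.525 and 0.604 CPM in total RNA and 0.727, 1.85 and 0.824 CPM in polysomes, with replicate 2 above the others (log2 ratio 0.94 ± 0.39, SE, adjusted p = 0.0584), and 47.1% of its exonic bases are free of other annotated genes. Selenoproteins, which recode a UGA codon, had 6 higher and 6 lower of 18 (33.3% each, against 32.8% and 34.1% of all genes, median 0.043). The counts were 3 higher and 2 lower without replicate 1, and with the G+C correction the median of the list was -0.11, with 5 higher and 6 lower. Without polysomal replicate 2 the median was 0.0029.

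The same comparison in the other conditions gave each its own libraries. It called 3907 genes higher (31.4%) and 4020 lower (32.3%) of 12431 in siCTRL NT cells, 4513 (36.2%) and 4661 (37.4%) of 12479 in siCTRL HU cells, and 4017 (32.1%) and 4050 (32.3%) of 12528 in siLSM14A NT cells. The log2 ratios of siLSM14A HU cells correlated with these at 0.957 (n = 12309 genes), 0.962 (n = 12339) and 0.956 (n = 12346). Of the 1093 genes that were at least 2-fold higher in siLSM14A HU cells and were tested in siCTRL NT cells, 1062 (97.2%) were also called higher there, and of 1289 at least 2-fold lower ones 1229 (95.3%) were also called lower. No gene called in siLSM14A HU cells was called in the opposite direction in siCTRL NT or siCTRL HU cells, and 1 was in siLSM14A NT cells.

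The difference of the ratios between conditions was then tested itself by an interaction term in edgeR. At an adjusted p-value under 0.05 it called 0 of 12603 genes (0%) against siCTRL NT, 0 of 12649 (0%) against siCTRL HU and 0 of 12660 (0%) against siLSM14A NT, and DESeq2 called 0 in each as well. At an unadjusted p under 0.05 there were 115, 487 and 179 genes in edgeR and 138, 508 and 245 in DESeq2. The edgeR counts were 0.91%, 3.85% and 1.41% of genes, each a smaller share than a threshold of 0.05 would give with no differences. With 1 replicate of either condition left out these edgeR counts ran from 77 to 949, from 170 to 1618 and from 92 to 1479. The smallest unadjusted p against siCTRL HU belonged to *NAP1L5*, whose ratios were -1.10, -0.95 and -0.74 in siLSM14A HU cells and -1.81, -2.20 and -1.72 in siCTRL HU cells (difference 1.01 ± 0.22, SE, adjusted p = 0.778). Against siLSM14A NT, *SOGA1* had ratios of 0.0050, 0.023 and -0.45 against -0.84, -0.87 and -0.60 (difference 0.66 ± 0.18, adjusted p = 0.99973). Both genes were picked for small p-values, so the lack of overlap of their replicates between conditions marks neither out, and neither passed the adjustment.

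This absence of calls against siLSM14A NT changed when 1 replicate of that group was left out. Without siLSM14A NT replicate 1, 16 genes passed at an adjusted p-value under 0.05, all with a higher ratio in siLSM14A HU cells. They included *SEMA3C*, *UFL1*, *CCAR1*, *TASOR2*, *MORC3*, *TOPORS*, *FNDC3A*, *SCAF11*, *U2SURP*, *LIG4*, *RECQL*, *ATAD2*, *RBM26*, *ANKRD50* and *ANLN*, listed here after their values were seen. The differences ran from 0.92 (*ANKRD50*) to 1.47 (*LIG4*) without that replicate, where *LIG4* had an adjusted p of 0.0373. With all libraries the difference of *LIG4* was 0.76 ± 0.42 (SE, adjusted p = 0.99973). Leaving out any other replicate called 0 genes, as did the G+C correction with all libraries. Spearman's rho between the ratio and G+C content was 0.455, 0.704 and 0.714 in siLSM14A NT replicates 1, 2 and 3. Whether this spread contributes to the 16 calls was not tested.

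The ratios of ribosomal protein mRNAs are set beside those of the other conditions as a description, with no test of the group. Their median was -0.12 here, -0.088 in siCTRL NT, 0.17 in siCTRL HU and 0.20 in siLSM14A NT cells. The difference was negative for 83 of 84 genes against siCTRL HU (median -0.23, against 0.0080 for all genes), for 83 of 84 against siLSM14A NT (median -0.33, against 0.0054) and for 63 of 84 against siCTRL NT (median -0.054). No single gene passed the adjustment, and the 3 comparisons share the siLSM14A HU libraries. The medians of single replicates were -0.11, -0.054 and -0.17 in siLSM14A HU cells, -0.0056, -0.0018 and -0.18 in siCTRL NT cells, 0.14, 0.32 and -0.14 in siCTRL HU cells and -0.035, 0.40 and 0.15 in siLSM14A NT cells. The siLSM14A HU values did not overlap those of siLSM14A NT but did overlap those of both siCTRL conditions. Lower ratios here were not particular to ribosomal proteins. In siLSM14A HU, siCTRL NT, siCTRL HU and siLSM14A NT cells, genes of 300 to 500 coding bases had medians of -0.17, -0.15, -0.038 and -0.0097. Under 300 bases they were -0.48, -0.40, -0.27 and -0.30. Nuclear respiratory chain genes had 0.19, 0.28, 0.37 and 0.48, and mitochondrial ribosomal proteins 0.25, 0.25, 0.31 and 0.45. Mitotic and G2/M genes had a median of 0.26 here and 0.096, 0.050 and 0.080 in siCTRL NT, siCTRL HU and siLSM14A NT cells, and there the values of single replicates overlapped with those of all 3.

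**Figure D5:**
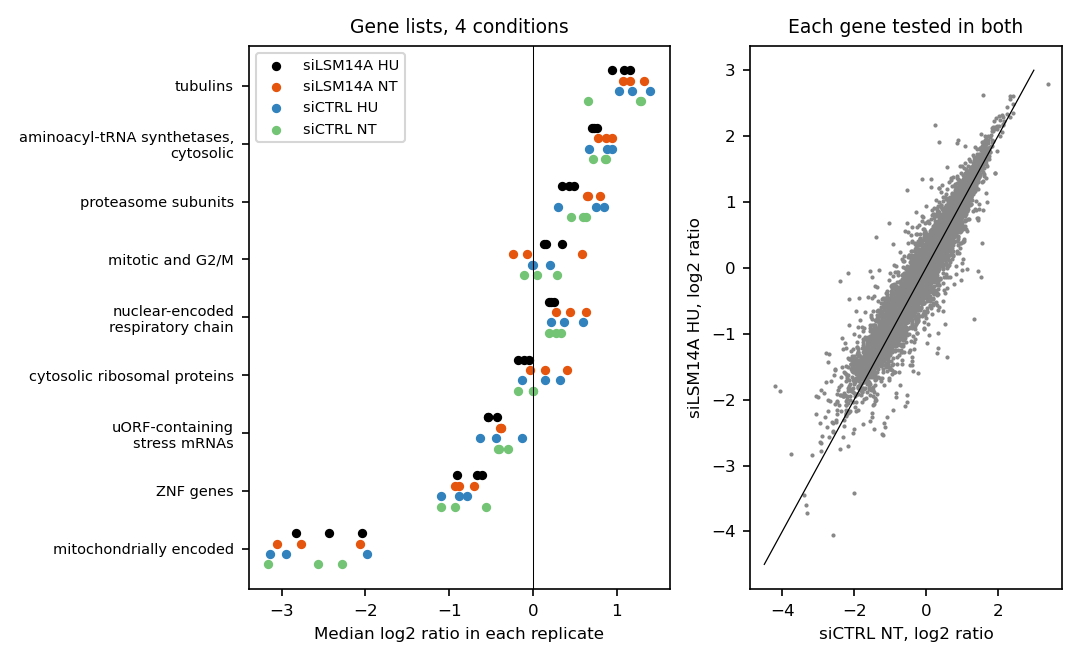
Left, median log2 ratio of heavy polysomes to total RNA for 9 gene lists in each of the 3 replicates of 4 conditions. Right, log2 ratio of each of 12309 genes in siLSM14A HU cells against siCTRL NT cells with the line of equal values. For cytosolic ribosomal proteins the 3 values of siLSM14A HU and of siCTRL NT are all under 0, while those of siLSM14A NT and siCTRL HU fall on both sides of it.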

How the data were processed

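Stranded TruSeq libraries of poly(A)+ RNA from A2058 cells were sequenced as paired-end reads of 100 bases. The cell line is given as in the labels, while a legend of the study names A375 cells for polysome work. The authors aligned the reads to hg19 with STAR 2.6.1a and deposited raw counts per gene (Gencode release 34) for 24 libraries, which were used as deposited. Of 20345 gene IDs, 19637 matched Gencode release 44 mapped to GRCh37, and the 19086 protein-coding ones entered the tests. Genes passing filterByExpr (minimum count 10, total 15) were fitted in edgeR 4.0.16 (R 4.3.3) with TMM scaling and quasi-likelihood F-tests, and p-values were adjusted by Benjamini-Hochberg with a threshold of 0.05, with a 2-fold change added where stated. CPM are scaled by the same factors. Differences between conditions were tested as interactions over 12 libraries each. The fits were tested on simulated data. The simulated libraries held no trend with G+C content, so this does not measure the power of the tests between conditions.

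Named genes were the 12 highest and 12 lowest log2 ratios among called genes with a mean of at least 5 CPM and 1 sign in all replicates, up to 4 genes per list (the 2 highest and 2 lowest with at least 5 CPM), 12 genes fixed by name, and 2 per direction for each difference. The gene groups and lists were chosen with earlier results of these data known. The labels do not say what separates the replicates, so p-values measure the spread between these samples. Deviations of same-numbered total and polysomal libraries from their group means correlated at 0.213, 0.200 and 0.289, and the numbers were taken to pair them. G+C content, UTRs and sequences come from 1 annotated transcript per gene. Alternatives were RLE and upper-quartile factors, DESeq2 1.42.0, other filters, all gene IDs, a replicate block, a loess correction for G+C content (span 0.3), all 24 libraries and leaving out replicates. Some genes and sequences are not reported here.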

Additional observations from a re-analysis of the deposited data

How the results depend on the processing

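Leaving out 1 replicate or library at a time gave 2974 to 4310 genes higher and 2726 to 4357 lower, and 883 to 1445 higher and 1009 to 1600 lower by at least 2-fold, where 2726 lower genes were left without replicate 1. At least 2-fold higher genes numbered 660 with upper-quartile scaling, 454 with the G+C correction and 434 with the replicate block and the G+C correction together, and 2-fold lower genes 580 and 605 with the latter 2. The fit with the replicate number as a block, which pairs total and polysomal RNA, called 4163 genes higher and 4459 lower. Of the named genes it added calls for PSMD7 (-0.27, adjusted p = 0.0428 by edgeR), H2BC21 (-0.45, adjusted p = 0.0413 by edgeR) and NPM1 (-0.31, adjusted p = 0.0276 by edgeR), and it changed no other call. The difference from siLSM14A NT had 0 genes called in all alternatives except without siLSM14A NT replicate 1 (0 to 16). The sign of the log2 ratio turned with the G+C correction, to the same value with the block added, for CDC7 (0.17), FOSL1 (-0.32), H1-2 (-0.16), HPRT1 (0.36), IER2 (-0.15), LIG4 (0.23), NARS1 (0.27), NPM1 (0.17), PSMC6 (0.28), SERGEF (-0.23) and SRSF9 (-0.091). It also turned for CNOT3 (-0.28 and -0.29), COL19A1 (0.0057 and 0.0032), DNAJC3 (0.030 and 0.017), ECT2 (0.025 and 0.020), H2AC25 (-0.48 and -0.49) and TUBG2 (-0.40 and -0.41), without and with the block. Upper-quartile scaling turned EEF1A1 (-0.036), SERGEF (-0.11), SRSF6 (-0.045), SRSF9 (-0.032) and TCP1 (-0.11). SOGA1 turned to 0.031 without replicate 3 and to 0.051 without polysomal replicate 3. The cause of these turns was not tested. Of 36 list medians, 6 changed sign with the G+C correction, 3 each with upper-quartile scaling, RLE factors, DESeq2 and the coding length correction, none with the block, and 1 to 3 with a replicate or library left out. With 3 libraries a group, differences under the spread of the polysomal replicates are not detectable.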

Other observations

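A further 80 long non-coding RNAs and 16 transcribed unprocessed pseudogenes were measured when all gene IDs entered the fit. The deposited counts held 19086 protein-coding IDs and only 551 of other annotated types, so these RNAs do not represent their classes. Of the long non-coding RNAs 31 (38.75%) were lower in heavy polysomes and 4 (5%) higher, with a median log2 ratio of -0.54, beside 34.1% lower and 32.8% higher among all protein-coding genes tested. Of the pseudogenes 11 were lower and 2 higher, with a median of -1.01. The 146 IDs that did not match the annotation had a median of -0.14, with 29 higher and 51 lower.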
